A study of Homo sapiens with 6 samples.

Results

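Messenger RNA levels of 9 genes that cells are known to raise under low oxygen were compared between HDQ-P1 cells treated with Y-320 and untreated cells. The genes were taken by name as NDRG1, BNIP3, BNIP3L, ANKRD37, KDM3A, P4HA1, P4HA2, PLOD1 and PLOD2, which are 9 of the 40295 gene identifiers in the table. HDQ-P1 is an established human breast cancer cell line, and Y-320 is a small molecule studied here as an enhancer of readthrough of premature termination codons. The untreated group held 3 libraries of HDQ-P1 cells, for which no solvent is mentioned, and the treated group held 3 libraries of the same cells given Y-320 at 1 μM for 48 h. All cells were grown in high glucose medium with serum, in culture conditions shared by both groups, and no growth under low oxygen is described for either group. A single cell line, dose and time were sequenced. Nothing in the labels says that the replicates came from separate cultures, so the p-values measure the spread between these libraries, which may be technical.

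Cells answer a shortage of oxygen through the hypoxia-inducible factors (HIFs), transcription factors whose alpha subunits are hydroxylated and destroyed while oxygen is plentiful. When stable, an alpha subunit pairs with ARNT and binds hypoxia response elements, whose core letters are ACGTG or GCGTG. Among the known targets are NDRG1, a cytoplasmic stress-response protein, the mitophagy receptors BNIP3 and BNIP3L, and enzymes that spend oxygen and 2-oxoglutarate to hydroxylate proteins or demethylate histones. Several of these genes are known to answer to iron, nutrient and endoplasmic reticulum stress as well.

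Y-320 up-regulated all of the 9 genes, though the value of ANKRD37 is uncertain because it shares sequence with the overlapping gene UFSP2. When 16580 genes were tested by the quasi-likelihood method of edgeR and p-values were adjusted after Benjamini and Hochberg over all of them, 9 of 9 were higher in treated cells at a threshold of 0.05 and 0 were lower. Treatment changed much of the transcriptome, since 26.2% of all genes tested were called higher and 25.4% lower (51.5% in either direction), so that a call alone was common. In size, 4 of the 9 genes were called higher with a log2 fold change of at least 1, against 2.43% of all genes tested. The median log2 fold change was 0.72 over the 9 genes and 0.00097 over all genes tested. In each of the 9 genes the lowest treated library lay above the highest untreated library, an arrangement found in 29.8% of all genes tested, while the opposite one was found in 29.4%. That 0 members were lower at an unadjusted p under 0.05 in the same fit follows from these calls. DESeq2 and limma-voom each gave 9 higher and 0 lower. In these bulk samples, a change in the share of cells that express a gene and a change in RNA per cell cannot be told apart.

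Depth ranged from 21045401 to 22740535 estimated counts per library, and 16357 to 16498 genes reached 10 counts. The 9 genes had between 108.3 and 15392 estimated counts in every library, far above the 3 counts (0.132 to 0.143 CPM) that bound a gene without a count, a limit that covers counting error only. CPM of genes are counts brought to the same total in each library and corrected by TMM factors, whether or not they are called normalized. Only the limit of 3 counts was computed without TMM factors. The sign ± gives the SD of 3 libraries. Of 9 epithelial markers, 2 were higher and 7 lower, with a summed level of 11484 to 12012 CPM in untreated and 7111 to 7190 CPM in treated libraries. The 5 leukocyte markers summed to 1.34 to 2.14 CPM in untreated and 1.95 to 2.11 CPM in treated libraries. The 4 endothelial markers summed to 17.7 to 19.3 CPM in untreated and 14.3 to 18.3 CPM in treated libraries, and of 3 tested, PECAM1 was higher (log2 fold change 1.22) and CDH5 lower (-1.29). Of 6 fibroblast markers, which some carcinoma cells also express, 4 were lower and 0 higher, and their sum was 249.7 to 285.1 CPM in untreated and 126.9 to 147.2 CPM in treated libraries. The part of these marker changes in the results below was not tested.

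The stretches around the core letters of hypoxia response elements are shown for the members whose promoter windows hold them. The genes were chosen as known to rise under low oxygen, a response that uses these elements. The matches are therefore not independent of that choice. The windows run from 250 bases before to 50 bases after the RefSeq start (GRCh38.p14), and 7 of the 9 genes had one, KDM3A with 2 starts. Capitals mark ACGTG or GCGTG, or their reverse complements CACGT and CACGC where the letters lie on the other strand. CACGTG holds the first core on both strands at overlapping positions, and each strand was counted. All stretches are written 5′ to 3′ on the strand of the gene.
BNIP3: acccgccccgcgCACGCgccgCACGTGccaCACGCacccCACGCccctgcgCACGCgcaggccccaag
ANKRD37: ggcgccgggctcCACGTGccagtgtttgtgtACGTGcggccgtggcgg
P4HA1: tgtgatcgagctCACGTagcgagggctgc
PLOD2, distal: agcgctGCGTGagcctccaCACGTagccgc
PLOD2, proximal: caaacagtccagACGTGgggcccaggagg
KDM3A: ccgggaggctgtGCGTGtcttgtgagagc
PLOD1, distal: gcgcgggggaggGCGTGgaggggcggggt
PLOD1, proximal: ggcgggcccagtGCGTGgcagcgggacct

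The BNIP3 stretch lies at chr10:131982011-131982078 on the minus strand, from 155 to 88 bases before the start and outside the annotated gene. That of ANKRD37 is at chr4:185396667-185396714 on the plus strand, in an annotated intron. The P4HA1 stretch, at chr10:73096936-73096964 on the minus strand, and the KDM3A stretch, at chr2:86441333-86441361 on the plus strand, each overlap an annotated exon. The PLOD2 stretches, at chr3:146161374-146161403 and chr3:146161314-146161342 on the minus strand, also overlap exons. Of the PLOD1 stretches on the plus strand, chr1:11934637-11934665 is intronic and chr1:11934680-11934708 overlaps an exon.

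BNIP3 had 6 matches in its 300 bases, more than any other of the 8 windows of these genes. ANKRD37 and PLOD2 had 3 matches each, PLOD1 had 2, and P4HA1 and KDM3A had 1 each. Neither core was found in the P4HA2 window, which says only that these letters are absent from it. At least 1 match was thus present in 6 of 7 genes, or in 7 of their 8 windows (87.5%). This stands against 48.4% of all 35116 windows and 59.2% of the 16751 windows of genes tested here. The KDM3A windows overlap and hold the same match, which was counted in each. The first core, ACGTG, was present in 4 of the 8 windows, each of another gene, and in 24.8% of the windows of genes tested. Windows with 6 or more matches made up 1.28% of the windows of genes tested. A match is a description of letters and was not tested as a binding site.

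**Figure D1:**
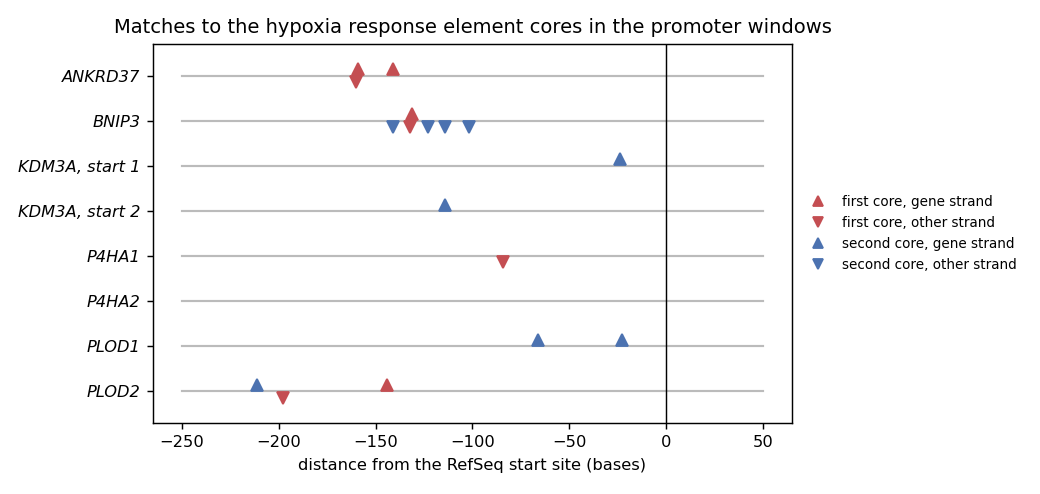
Each grey line is a promoter window from 250 bases before to 50 bases after a RefSeq start (x axis, bases from the start), and each triangle is a match to the first core (ACGTG, red) or the second core (GCGTG, blue), pointing up on the gene's strand and down on the other strand. BNIP3 holds 6 matches within a short stretch, and P4HA2 holds 0.

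NDRG1 (ENSG00000104419, chr8:133237175-133302022, minus strand, hg38) encodes a protein that is a substrate of the kinases SGK1 and GSK3 and is known as a suppressor of metastasis in several cancers. Its level was 96.9, 112.0 and 118.8 normalized CPM in untreated replicates 1, 2 and 3, and 628.4, 687.6 and 694.6 normalized CPM in treated replicates 1, 2 and 3. All treated libraries stood far above all untreated libraries. The mean rose from 109 ± 11.2 to 670 ± 36.4 CPM, 6.14-fold in the fit, with a log2 fold change of 2.62 (SE 0.064, 95% interval 2.47 to 2.76, edgeR adjusted p = 9.23e-10). Of the 16580 genes tested, 0.139% had a log2 fold change at least as high, which put NDRG1 at rank 23. In estimated counts, NDRG1 went from 2140 to 2622 in untreated libraries to 14357 to 15392 in treated libraries. Of its 31-base words, 5.63% also occurred in an overlapping long non-coding RNA of the same strand (ENSG00000289316), which was not analysed here.

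BNIP3 (ENSG00000176171, chr10:131967684-131981967, minus strand) encodes an outer mitochondrial membrane protein that recruits autophagosomes to mitochondria. Its level was 34.3, 38.2 and 38.4 normalized CPM in the untreated libraries and 126.9, 143.3 and 146.7 normalized CPM in the treated libraries. The groups were well apart, with the first replicate lowest in each. BNIP3 rose from 37.0 ± 2.29 to 139 ± 10.6 CPM, a log2 fold change of 1.91 (SE 0.063, 95% interval 1.77 to 2.05, edgeR adjusted p = 4.89e-09), and stood at rank 82.

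BNIP3 has many processed pseudogenes, and 22.3% of its 31-base words occurred in another gene, 19.9% in BNIP3P1 alone. The 44 rows of BNIP3 pseudogenes summed to 75.6, 53.0 and 48.4 estimated counts in the untreated libraries and to 63.6, 54.5 and 55.7 in the treated libraries. That sum equalled 5.71% to 9.98% of the BNIP3 count in untreated libraries and 1.71% to 2.19% in treated libraries. The summed pseudogene counts overlapped between the groups, whereas BNIP3P1 alone had 8.0, 7.7 and 3.7 estimated counts in untreated and 11.3, 16.6 and 19.1 in treated libraries, all treated above all untreated. When the 44 rows were added to BNIP3, an alternative chosen after seeing the data, its log2 fold change was 1.83.

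BNIP3L (ENSG00000104765, chr8:26383054-26505636, plus strand), also called NIX, encodes the close relative of BNIP3 that clears mitochondria from maturing red blood cells. It was measured at 67.6, 71.96 and 73.0 normalized CPM in untreated libraries and at 113.1, 110.8 and 115.7 normalized CPM in treated libraries. The groups did not overlap, and the 3 treated values lay close together. Its mean rose from 70.9 ± 2.86 to 113 ± 2.45 CPM, with a log2 fold change of 0.68 (SE 0.035, 95% interval 0.60 to 0.76, edgeR adjusted p = 1.18e-07). Of its words, 7.21% were shared with PNMA2, a gene on the opposite strand whose log2 fold change was 0.0067 (edgeR adjusted p = 0.935).

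Before treatment BNIP3 had fewer counts than BNIP3L, whose transcript is longer, and after treatment it had more. Per kilobase of canonical transcript, BNIP3 was already the higher of the pair in untreated cells, so the order did not change by that length. With the union of all exons as length it did change. BNIP3 was then at 9.13 and BNIP3L at 17.1 CPM per kilobase in untreated cells, and at 34.3 and 27.3 in treated cells. The log2 ratio of BNIP3 to BNIP3L counts was -0.98, -0.92 and -0.93 in the untreated libraries and 0.17, 0.37 and 0.34 in the treated libraries. The sign changed in all treated libraries, and the mean ratio moved by 1.23 on the log2 scale, from -0.94 ± 0.034 to 0.29 ± 0.11. The two-sided exact permutation test gave p = 0.1, which is the smallest that 3 against 3 libraries allow, and 0.1 after Benjamini-Hochberg adjustment over the 3 pairs of paralogues compared. The exact test therefore cannot reach 0.05 for a single ratio with these libraries.

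ANKRD37 (ENSG00000186352, chr4:185396021-185400628, plus strand) encodes a small ankyrin repeat protein and was the member with the fewest counts. Its level was 5.93, 5.19 and 6.16 normalized CPM in untreated libraries and 7.92, 9.71 and 8.51 normalized CPM in treated libraries. The groups did not overlap, but the highest untreated and the lowest treated library were close. The mean rose from 5.76 ± 0.506 to 8.71 ± 0.915 CPM, a log2 fold change of 0.60 (SE 0.11, 95% interval 0.35 to 0.84, edgeR adjusted p = 0.00104). These values rest on 108.3 to 136.0 estimated counts in untreated and 180.9 to 212.2 in treated libraries.

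ANKRD37 overlaps UFSP2, a protease gene on the opposite strand, and 38.2% of the ANKRD37 words occur in UFSP2. UFSP2 had 672.1, 664.7 and 666.0 estimated counts in untreated and 982.1, 959.8 and 933.4 in treated libraries. UFSP2 itself rose, with a log2 fold change of 0.48 (SE 0.040, edgeR adjusted p = 3.60e-06). The log2 ratio of ANKRD37 to UFSP2, examined after seeing the data, was -2.42 ± 0.175 in untreated and -2.31 ± 0.130 in treated libraries, a difference of 0.12 (two-sided exact permutation p = 0.5). Whether strand was used in the counting is not given in the sources used here, so reads from the shared sequence may not be separable and the ANKRD37 value is uncertain.

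**Figure D2:**
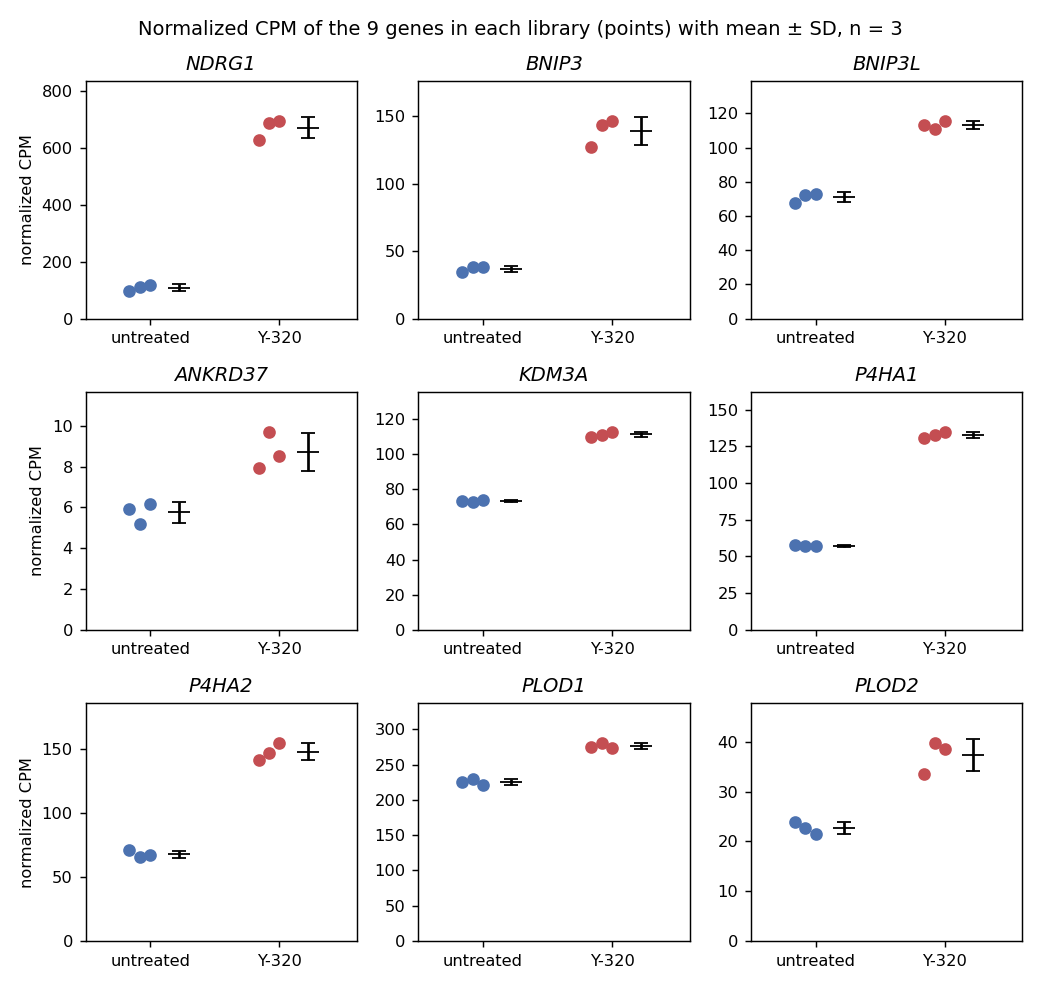
Each panel shows normalized CPM (y axis, from 0, with its own scale) of a gene in the 3 untreated libraries (blue) and the 3 treated libraries (red), with the mean ± SD (black) beside them. In each panel the red points lie above the blue points, and as a fold change the difference is largest for NDRG1 (109 against 670 CPM) and smallest for PLOD1 (225 against 276 CPM).

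KDM3A (ENSG00000115548, chr2:86440647-86492716, plus strand) encodes a demethylase that removes methyl groups from lysine 9 of histone H3. It was measured at 73.4, 72.6 and 73.9 normalized CPM in untreated libraries and at 110.0, 111.2 and 112.8 normalized CPM in treated libraries. Replicates lay within a narrow band in each group, and the bands were far apart. KDM3A rose from 73.3 ± 0.630 to 111 ± 1.40 CPM, with a log2 fold change of 0.60 (SE 0.028, 95% interval 0.54 to 0.66, edgeR adjusted p = 4.81e-08). Only 0.0296% of its words occurred in another gene.

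P4HA1 (ENSG00000122884, chr10:73007217-73096974, minus strand) and P4HA2 (ENSG00000072682, chr5:132190147-132295315, minus strand) encode catalytic alpha subunits of collagen prolyl 4-hydroxylase, whose product, hydroxyproline, holds the collagen triple helix together. P4HA1 was at 58.1, 56.8 and 57.2 normalized CPM in untreated libraries and at 130.8, 132.5 and 134.8 normalized CPM in treated libraries. P4HA2 was at 70.8, 65.7 and 67.1 normalized CPM in untreated libraries and at 141.6, 147.2 and 154.8 normalized CPM in treated libraries. For both genes all treated libraries stood far above all untreated libraries.

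The mean of P4HA1 rose from 57.4 ± 0.659 to 133 ± 2.04 CPM, a log2 fold change of 1.21 (SE 0.029, 95% interval 1.15 to 1.27, edgeR adjusted p = 7.65e-10). That of P4HA2 rose from 67.9 ± 2.65 to 148 ± 6.66 CPM, a log2 fold change of 1.12 (SE 0.041, 95% interval 1.03 to 1.21, edgeR adjusted p = 1.04e-08). The intervals of the 2 subunits overlapped. Their log2 count ratio, P4HA1 over P4HA2, was -0.24 ± 0.040 in untreated and -0.16 ± 0.043 in treated libraries, a difference of 0.087 (two-sided exact permutation p = 0.1, adjusted p = 0.1, the smallest possible). The words of P4HA2 were shared with other genes at 8.26%, 5.06% with the antisense gene P4HA2-AS1, which was not analysed here. The opposite-strand genes PDLIM4 and SLC22A4, which overlap P4HA2, had log2 fold changes of 0.087 (edgeR adjusted p = 0.244) and 0.25 (edgeR adjusted p = 0.0696).

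PLOD1 (ENSG00000083444, chr1:11934205-11975538, plus strand) and PLOD2 (ENSG00000152952, chr3:146035139-146163725, minus strand) encode lysyl hydroxylases, which prepare collagen lysines for cross-links and for the addition of sugars. PLOD1, which acts on the helical part of collagen, was at 224.7, 229.9 and 221.3 normalized CPM in untreated libraries and at 274.6, 280.9 and 273.9 normalized CPM in treated libraries. PLOD2, which acts on the telopeptides, was at 23.8, 22.7 and 21.4 normalized CPM in untreated libraries and at 33.6, 39.8 and 38.5 normalized CPM in treated libraries. Both genes were higher in all treated libraries, PLOD1 by a small step and PLOD2 by a larger one from a low level, with treated replicate 1 the lowest of its group for PLOD2.

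For PLOD1 the mean rose from 225 ± 4.30 to 276 ± 3.84 CPM, a log2 fold change of 0.30 (SE 0.025, 95% interval 0.24 to 0.35, edgeR adjusted p = 4.39e-06). It was the smallest change of the 9 genes, and 19.4% of all genes tested had a log2 fold change at least as high. For PLOD2 the mean rose from 22.7 ± 1.22 to 37.3 ± 3.25 CPM, a log2 fold change of 0.72 (SE 0.068, 95% interval 0.57 to 0.87, edgeR adjusted p = 1.02e-05). The log2 count ratio of PLOD2 to PLOD1 moved from -3.32 ± 0.070 to -2.89 ± 0.118, a difference of 0.42 without overlap between the groups (two-sided exact permutation p = 0.1, adjusted p = 0.1, the smallest possible).

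**Figure D3:**
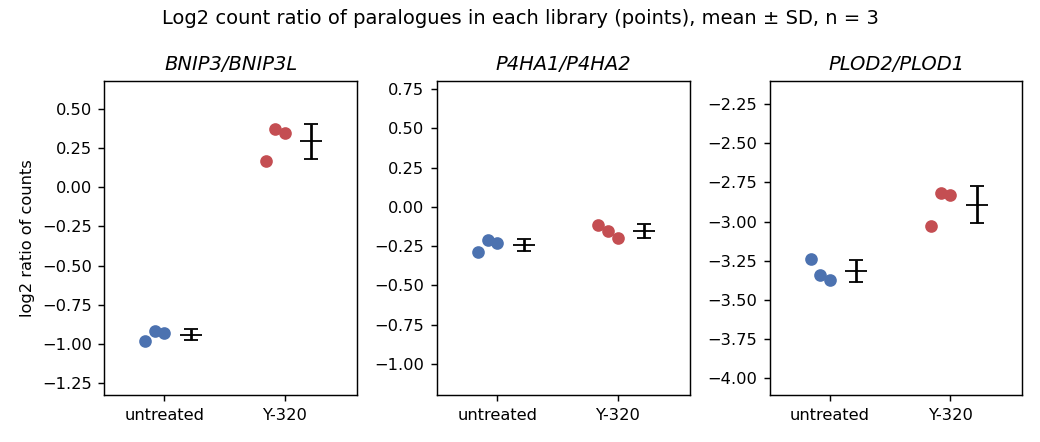
Log2 ratio of counts (y axis, the same span in each panel) of BNIP3 to BNIP3L, P4HA1 to P4HA2 and PLOD2 to PLOD1 in each untreated (blue) and Y-320-treated (red) library, with the mean ± SD of 3 libraries (black). The BNIP3 to BNIP3L ratio of counts, not corrected for length, crosses 0, from -0.94 to 0.29, while the P4HA1 to P4HA2 ratio moves by 0.087.

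Levels were compared between genes after division by the length of the canonical transcript, in normalized CPM per kilobase. In untreated cells PLOD1 was the most abundant of the 9 genes, at 75.7 ± 1.45 CPM per kilobase. It was followed by NDRG1 at 36.1 ± 3.70, BNIP3 at 23.98 ± 1.48, P4HA1 at 20.9 ± 0.240 and BNIP3L at 20.5 ± 0.828 CPM per kilobase. KDM3A (15.7), P4HA2 (14.9), ANKRD37 (7.35) and PLOD2 (6.04 CPM per kilobase) were lower. Among neighbours in this order, the libraries of P4HA1 and BNIP3L overlapped, as did those of KDM3A and P4HA2.

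In treated cells NDRG1 was first, at 222 ± 12.03 CPM per kilobase, and PLOD1 second, at 92.9 ± 1.29. BNIP3 reached 90.1 ± 6.87 CPM per kilobase, and its libraries overlapped those of PLOD1. P4HA1 (48.4), BNIP3L (32.8), P4HA2 (32.5), KDM3A (23.9), ANKRD37 (11.1) and PLOD2 (9.95 CPM per kilobase) followed. Libraries of BNIP3L and P4HA2 overlapped, as did those of ANKRD37 and PLOD2. The summed level of the 9 genes per length went from 221 ± 4.77 to 563 ± 23.2 CPM per kilobase, of which NDRG1 made up 16.3% in untreated and 39.3% in treated cells, and PLOD1 34.2% and 16.5%. These levels depend on the transcript assumed, since with the union of all exons as length the untreated level of NDRG1 was 9.10 and that of BNIP3L 17.1 CPM per kilobase, which reverses their order.

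Of 7 paralogues of the 9 genes, 2 were higher and 3 lower, with a median log2 fold change of -0.05, beside 26.2% of all genes tested called higher and 25.4% lower. NDRG4 rose from 65.5 ± 4.21 to 102 ± 6.36 CPM (log2 fold change 0.64, SE 0.054, edgeR adjusted p = 4.48e-06), and PLOD3, the remaining lysyl hydroxylase, from 93.4 ± 1.47 to 139 ± 2.53 CPM (0.57, SE 0.028, edgeR adjusted p = 7.25e-08). In the NDRG family, NDRG2 fell from 9.90 ± 0.422 to 7.26 ± 0.123 CPM (log2 fold change -0.45, SE 0.078, edgeR adjusted p = 0.000752). NDRG3 fell from 78.1 ± 2.10 to 72.4 ± 1.95 CPM (-0.11, SE 0.034, edgeR adjusted p = 0.0214).

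KDM3B, which like KDM3A demethylates lysine 9 of histone H3, fell from 157 ± 2.66 to 137 ± 0.50 CPM (log2 fold change -0.20, SE 0.026, edgeR adjusted p = 9.34e-05). The third gene of that family, JMJD1C, had a log2 fold change of -0.05 (95% interval -0.11 to 0.00, edgeR adjusted p = 0.111). P4HA3, the remaining alpha subunit, was near 1 CPM in both groups, and its log2 fold change of 0.08 had an interval of -0.56 to 0.73 (edgeR adjusted p = 0.833), so that a change of that size was not detectable at this depth. The intervals of NDRG1 and KDM3A did not overlap those of their paralogues, whereas the interval of PLOD3 lay above that of PLOD1 and overlapped that of PLOD2.

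**Figure D4:**
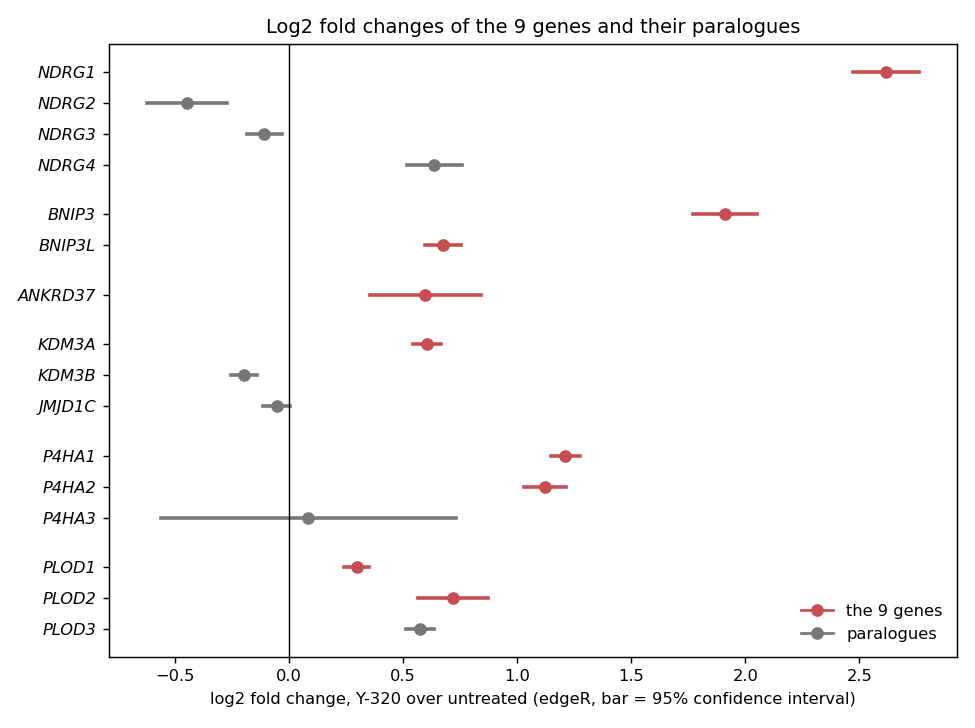
Log2 fold change of treated over untreated cells (x axis, edgeR) for the 9 genes (red) and their paralogues (grey), grouped by family (y axis), with bars for the 95% confidence interval. NDRG1 (2.62) and BNIP3 (1.91) stand to the right, and NDRG2 (-0.45), NDRG3 (-0.11) and KDM3B (-0.20) lie to the left of 0.

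Genes that work with the members were counted in lists written from general knowledge, with earlier results of these data known. Of 19 genes of collagen modification and folding, 10 were higher, 6 were lower and 3 did not pass the test. Their median log2 fold change was 0.24, while 26.2% of all genes tested were called higher and 25.4% lower. The largest rises were LOX, a lysyl oxidase that cross-links collagen, from 16.3 ± 1.24 to 51.2 ± 2.81 CPM (log2 fold change 1.65, edgeR adjusted p = 1.21e-08), P3H4 (0.68) and P3H3 (0.64). LOXL4 fell from 60.7 ± 0.756 to 25.7 ± 5.63 CPM (log2 fold change -1.24, edgeR adjusted p = 4.57e-06), P3H2, a prolyl 3-hydroxylase, had -0.84 and COLGALT2 -0.69. LOXL1 (-0.03), LOXL3 (0.19) and P4HA3 did not pass the test.

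Among 24 mitophagy receptors, adaptors and regulators, 23 were tested. Of these, 6 were higher, 6 lower and 11 did not pass the test, with a median log2 fold change of -0.02. Both shares were near those of all genes tested (26.2% higher and 25.4% lower). The count of 6 lower genes was 9 with upper-quartile scaling, 5 in DESeq2 and 4 to 8 when a library was left out. MAP1LC3B, an autophagosome protein to which BNIP3 and BNIP3L bind, rose from 60.8 ± 1.09 to 120 ± 3.71 CPM (log2 fold change 0.98, edgeR adjusted p = 6.25e-09). The ubiquitin-binding adaptors SQSTM1 and OPTN rose by 0.87 and 0.64 on the log2 scale. The mitophagy receptor FUNDC1 had a log2 fold change of -0.39 (edgeR adjusted p = 0.0101), the kinase PINK1 had -0.33 (edgeR adjusted p = 1.16e-06) and the kinase TBK1 had -0.28 (edgeR adjusted p = 0.000848). MAP1LC3A was too low to be tested.

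KDM3A was compared with 21 other JmjC-domain genes, most of which encode histone demethylases. Of these 6 were higher, 7 lower and 8 did not pass the test, with a median log2 fold change of -0.05. Over all genes tested, 26.2% were called higher and 25.4% lower. JMJD6 rose from 19.7 ± 0.657 to 37.3 ± 1.31 CPM (log2 fold change 0.93, edgeR adjusted p = 9.77e-08), followed by KDM4C (0.56) and KDM7A (0.46). HR, a nuclear receptor corepressor, fell from 39.5 ± 1.72 to 19.1 ± 1.39 CPM (log2 fold change -1.05, edgeR adjusted p = 1.87e-07), and KDM3B (-0.20) and KDM4A (-0.16) were the next lowest among those past the threshold. The count of 7 lower genes was 4 in DESeq2 and 9 with upper-quartile scaling. It was 3 to 6 when a library was left out, lowest without untreated replicate 3.

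Other targets of the HIFs moved largely with the 9 genes. Of 43 tested, 40 were higher, 0 were lower and 3 did not pass the test, beside 26.2% of all genes tested called higher and 25.4% lower. Their median log2 fold change was 0.57. Of the 43, 11 were called higher with a log2 fold change of at least 1, against 2.43% of all genes tested. At an unadjusted p under 0.05, 0 were lower, and DESeq2 and limma-voom also called 0 lower and 38 and 40 higher. Carbonic anhydrase CA9 rose from 0.776 ± 0.219 to 6.90 ± 0.528 CPM (log2 fold change 3.13, edgeR adjusted p = 2.61e-07), the secreted glycoprotein gene STC2 from 65.6 ± 1.14 to 283 ± 24.3 CPM (2.11, edgeR adjusted p = 2.11e-09) and the angiogenic factor VEGFA from 42.6 ± 3.11 to 164 ± 3.21 CPM (1.94, edgeR adjusted p = 7.52e-10). The smallest rises past the threshold were PGAM1 (0.12), SLC16A3 (0.13) and WSB1 (0.24). GYS1 (0.04), CA12 (-0.21) and PPP1R3C (-0.33) did not pass the test. LOX and KDM4B stand in this list and in another above, as KDM3B, JMJD1C, P4HA3 and PLOD3 stand among the paralogues and in another list.

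Of 11 kinases and transcription factors that act on NDRG1, HIF subunits included, 3 were higher, 3 lower and 5 did not pass the test, with a median log2 fold change of 0.09. These shares were near those of all genes tested (26.2% higher and 25.4% lower). HIF1A fell from 187 ± 7.69 to 148 ± 5.37 CPM (log2 fold change -0.34, edgeR adjusted p = 3.09e-05) and EPAS1, which encodes the alpha subunit of HIF-2, from 245 ± 4.52 to 182 ± 8.83 CPM (-0.42, edgeR adjusted p = 3.49e-06). EGR1 had a log2 fold change of -0.55 (edgeR adjusted p = 0.000299). Their partner ARNT rose by 0.19 (edgeR adjusted p = 0.00285), MYC, a known repressor of NDRG1, by 0.20 (edgeR adjusted p = 0.00227) and GSK3B by 0.09 (edgeR adjusted p = 0.0295) on the log2 scale. SGK1 had a log2 fold change of 0.14 (edgeR adjusted p = 0.321). These are RNA levels, and HIF alpha protein was not measured here.

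Iron is a cofactor of the hydroxylases, and NDRG1 is known to answer to its removal. Of 16 genes of iron handling, 5 were higher, 8 lower and 3 did not pass the test. Their median log2 fold change was -0.10, while 26.2% of all genes tested were called higher and 25.4% lower. STEAP3, an iron reductase, rose from 71.3 ± 1.65 to 137 ± 5.49 CPM (log2 fold change 0.94, edgeR adjusted p = 1.46e-08), the transferrin receptor TFRC from 603 ± 13.7 to 757 ± 9.85 CPM (0.33, edgeR adjusted p = 1.09e-06) and SLC39A14 by 0.28 on the log2 scale. The iron exporter SLC40A1 had a log2 fold change of -0.92 (edgeR adjusted p = 0.00407) at 1 to 2 CPM, CYBRD1 had -0.75 and IREB2 had -0.33. Of the ferritin genes, FTL rose by 0.17 on the log2 scale (edgeR adjusted p = 0.00592), while FTH1 (-0.03) did not pass the test. PCBP2 (0.05) and HMOX2 (0.12) did not pass it either.

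**Figure D5:**
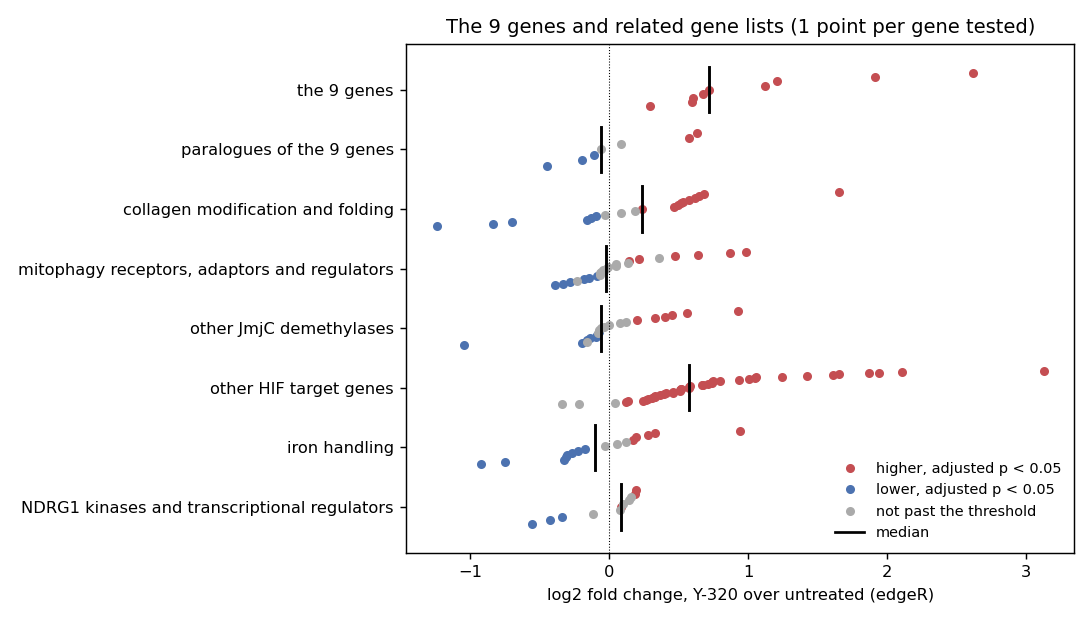
Log2 fold change of treated over untreated cells (x axis, edgeR), 1 point per gene tested, for the 9 genes and 7 lists (y axis), coloured by call, with the median of each list as a black line. The medians of the 9 genes (0.72) and of the other HIF target genes (0.57) lie to the right of those of the remaining lists, which run from -0.10 to 0.24.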

How the data were processed

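RNA-seq of 3 untreated and 3 Y-320-treated (1 μM, 48 h) HDQ-P1 samples was analysed, with groups taken from the labels. The authors deposited estimated counts per Ensembl gene, not normalized, made with kallisto 0.46.1 on GRCh38 (hg38) per the submitters' processing notes. The paper's several pipelines and the Ensembl release are not given in the sources used here. kallisto divides reads between near-identical transcripts, which can move counts between BNIP3 and its pseudogenes or between overlapping genes. Of 40295 identifiers, 35390 matched a symbol. The estimated counts were rounded, filtered with filterByExpr and scaled by TMM. They were tested with edgeR 4.0.16 in R 4.3.3 (quasi-likelihood, no block, Benjamini-Hochberg adjustment over all genes, threshold 0.05). The fit was first tried on simulated data in which far fewer genes changed than were called here. That trial therefore does not show how the fit behaves when much of the transcriptome changes. Alternatives used DESeq2 1.42.0, limma 3.58.1 (voom), other filters and scalings, unrounded counts, a replicate block, and each library left out. Ratios were tested by exact permutation over libraries in Python 3.11.15 with scipy 1.17.1. Annotation came from GENCODE 44, shared 31-base words from its transcripts, and promoter windows from RefSeq. The members and lists were chosen with earlier results of these data known. The report names all members and paralogues, the highest and lowest 3 called genes of other lists, and up to 4 genes not past the threshold. It also names genes sharing sequence with a member, and FTL. Depth was 21045401 to 22740535 counts per library.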

Additional observations from a re-analysis of the deposited data

How the results depend on the processing

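All of the 9 genes kept their direction and their side of the threshold under the 14 other fits run, and BNIP3 under 15. Their log2 fold changes ranged from 2.54 to 2.68 for NDRG1, 1.83 to 1.97 for BNIP3, 1.18 to 1.22 for P4HA1, 1.09 to 1.16 for P4HA2, 0.67 to 0.79 for PLOD2, 0.64 to 0.70 for BNIP3L, 0.57 to 0.62 for KDM3A, 0.51 to 0.66 for ANKRD37 and 0.27 to 0.31 for PLOD1. The largest adjusted p among them was 0.00523, for ANKRD37. These fits do not separate ANKRD37 from the overlapping UFSP2, and the difference in their log2 ratio, an alternative added after seeing the data, was 0.12 (two-sided exact permutation p = 0.5). With a required log2 fold change of at least 1, 4 of the 9 genes were counted as higher, against 2.43% of all genes tested. Among the lists, the count of other JmjC-domain genes called lower was 7. It was 4 with DESeq2, 9 with upper-quartile scaling and between 3 and 6 with a library left out. The count of mitophagy genes called lower was 6, but 9 with upper-quartile scaling and between 4 and 8 with a library left out. The cause was not tested. In a fit with the replicate number as a block, the 9 genes were again all called higher (9), with log2 fold changes of 2.62 for NDRG1 and 1.91 for BNIP3, and 4285 genes were higher and 4159 lower in all. Over all genes tested, the deviations of same-numbered libraries from their group means correlated at 0.0016, 0.0178 and 0.0038. Those of differently numbered libraries correlated at -0.0519 to 0.0468. Such values, taken over all genes, do not settle whether same-numbered libraries were prepared together. DESeq2 called 3405 genes higher and 3278 lower, and upper-quartile scaling 3917 and 4746. Levels per length with the union of exons were 42.4 CPM per kilobase for PLOD1, 18.5 for P4HA1, 9.13 for BNIP3, 6.70 for P4HA2, 5.51 for KDM3A, 2.56 for ANKRD37 and 1.56 for PLOD2 in untreated cells. Depth limits P4HA3, CA12, PPP1R3C and other genes near 1 CPM, and ANKRD37 has the widest interval of the 9 genes.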
